A study of Mus musculus with 8 samples.

Results

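The 32 genes of glycolysis, lactate handling and the pentose phosphate pathway described here were picked by gene symbol from a count matrix of 27179 genes, and each had its own row. They are the glucose transporters Slc2a1 and Slc2a3; the hexokinases Hk1, Hk2 and Hk3; Gpi1, Pfkl, Pfkm, Pfkp, Pfkfb3, Pfkfb4, Aldoa, Aldoc and Tpi1 of upper glycolysis; Gapdh, Pgk1, Pgam1, Eno1, Eno2, Eno3 and Pkm of lower glycolysis; Ldha, Ldhb, Slc16a1 and Slc16a3 for lactate; Pdk1, Pdk3 and Pdha1 at the entry of pyruvate into mitochondria; and G6pdx, Pgd, Tkt and Taldo1 of the pentose phosphate pathway. Of the 32, 30 held enough counts to be tested, and Eno2 and Ldhb did not. The study sequenced RNA of mouse (C57BL/6) natural killer (NK) cells in 8 libraries, 2 per group: CIS-/- (CIS-null) NK cells in vitro, wild-type NK cells in vitro, CIS-null NK cells ex vivo and wild-type NK cells ex vivo. CIS, encoded by Cish, is a feedback inhibitor of cytokine signalling. All groups came from spleen, bone marrow and blood by bead selection for CD49b, an integrin chain encoded by Itga2. The labels give no age, culture medium, cytokine or culture time, and do not say how the CIS-null allele was made. Nor do they tell whether the replicates of a group were different mice, different cultures or repeat preparations. The p-values therefore speak of the spread among these libraries, which may be technical.

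NK cells are lymphocytes of the innate immune system that destroy virus-infected and tumour cells. When lymphocytes are activated by cytokines they take up more glucose, split it in the cytosol to pyruvate by glycolysis, reduce much of the pyruvate to lactate with lactate dehydrogenase, and export the lactate through monocarboxylate transporters. The pentose phosphate pathway branches off at glucose 6-phosphate and makes NADPH and ribose for nucleotides. Pyruvate that is not made into lactate enters mitochondria through the pyruvate dehydrogenase complex, which the PDK kinases switch off. Many genes of the pathway carry binding sites for hypoxia-inducible factor, whose core motif in DNA reads ACGTG or GCGTG, and for MYC and related factors, which bind CACGTG.

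Library totals ran from 21.5 to 28.1 M counts. The 32 genes together held 0.892% and 0.945% of all counts in CIS-null in vitro libraries, 0.710% and 0.789% in wild-type in vitro libraries, 0.382% and 0.362% in CIS-null ex vivo libraries, and 0.370% and 0.369% in wild-type ex vivo libraries. Levels below are CPM, counts per 1e+06 counts after scaling by the trimmed mean of M values, given for replicate 1 and replicate 2 in that order. Cish, the targeted gene, stood at 21.2 and 17.2 CPM in CIS-null in vitro libraries against 219.8 and 202 CPM in wild-type in vitro libraries, and at 1.29 and 2.64 CPM in CIS-null ex vivo libraries against 9.26 and 9.12 CPM in wild-type ex vivo libraries. NK cell markers were present throughout, with the receptor gene Ncr1 between 476 and 1884 CPM, while Itga2 itself lay between 7.13 and 21.2 CPM in vitro and between 235 and 277 CPM ex vivo. Sex-linked transcripts differed between the genotypes. Xist, made by the inactive X chromosome, stood at 131 and 89.7 CPM in CIS-null in vitro libraries against 0 and 0.0351 CPM in wild-type in vitro libraries, and at 0.322 and 0.197 CPM in CIS-null ex vivo libraries against 119.6 and 162 CPM in wild-type ex vivo libraries. The Y-linked Ddx3y stood at 0 and 0.0400 CPM in CIS-null in vitro libraries against 79.3 and 82.6 CPM in wild-type in vitro libraries, and at 67.4 and 111 CPM in CIS-null ex vivo libraries against 44.1 and 28.1 CPM in wild-type ex vivo libraries. Sex and genotype therefore cannot be told apart in vitro. The same holds for sex and culture in CIS-null cells, which held Xist in vitro and Ddx3y ex vivo, and wild-type ex vivo libraries held both transcripts. Wild-type ex vivo libraries thus differed in Xist from both CIS-null ex vivo and wild-type in vitro libraries. Sex is therefore not balanced in the genotype comparison ex vivo or in the culture comparison of wild-type cells either. Pgk1, Pdk3, Pdha1 and G6pdx are X-linked.

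In cultured NK cells without CIS, 8 of the 30 tested genes rose and 1 fell relative to wild-type cells, by edgeR's quasi-likelihood test with Benjamini-Hochberg adjustment over 13184 genes at a threshold of 0.05. Those that rose were Slc16a1, Aldoc, Pgk1, Ldha, Aldoa, Pkm, Eno1 and Slc2a3, by 0.38 to 0.94 on the log2 scale. The hexokinase gene Hk1 fell. The share that rose was 26.7% of the members, beside 11.0% of all genes tested, and the share that fell was 3.33%, beside 14.6%. The median log2 fold change was 0.24 over the 30 genes and 0.00 over all genes tested, and 26 of the 30 values lay above 0. In 19 genes both CIS-null libraries lay above both wild-type libraries, and in 4 they lay below, where 33.7% and 35.1% of all genes tested did so. Without CIS-null in vitro replicate 2, or without wild-type in vitro replicate 1, 2 genes still rose, Ldha and Slc16a1, and 0 fell. Over all genes, the calls in those fits were also fewer, 187 higher and 313 lower of 13514 without the CIS-null library and 396 higher and 472 lower of 13537 without the wild-type one, against 1445 higher and 1929 lower of 13184 with all libraries. These are bulk measurements, in which fewer cells of a type and less RNA per cell cannot be told apart.

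Ldha and Slc16a1, genes of lactate production and export, were the members called in 22 of 22 alternative analyses. Ldha encodes the muscle-type subunit of lactate dehydrogenase and lies at chr7:46842274-46855627 (GRCm38.p6). Its level was 1659.9 and 2036 CPM in CIS-null in vitro libraries against 1056 and 1125 CPM in wild-type in vitro libraries. The groups did not overlap, and the difference was 1.69-fold (log2 fold change 0.76, SE 0.125, adjusted p = 0.00654). Slc16a1, at chr3:104638664-104658462, encodes the lactate and pyruvate transporter MCT1. It stood at 143 and 157 CPM in CIS-null in vitro libraries against 71.7 and 83.9 CPM in wild-type in vitro libraries, a 1.92-fold difference (log2 fold change 0.94, SE 0.130, adjusted p = 0.00460). Its CIS-null libraries again lay above both wild-type libraries by more than either pair differed within itself. Slc16a3, the lactate exporter MCT4, was at 166 and 173 CPM in CIS-null in vitro libraries against 67.9 and 136 CPM in wild-type in vitro libraries. Wild-type replicate 2 lay near the CIS-null level and replicate 1 far below it, and the difference did not pass (log2 fold change 0.73, SE 0.257, adjusted p = 0.0672). Ldhb, the heart-type subunit, held 5 and 7 raw counts in CIS-null in vitro libraries and 3 and 0 in wild-type in vitro libraries, too few to test. Bsg, the chaperone that carries both transporters to the cell surface, also rose (log2 fold change 0.46, SE 0.112, adjusted p = 0.0213).

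The promoter sequences of 5 of the called genes are shown because the members differ in how many core motifs of the hypoxia-inducible factor they hold there. Each runs from 250 bases before to 50 bases after a RefSeq transcription start (GRCm38.p6), 5′ to 3′ on the gene's own strand. Capitals mark ACGTG or GCGTG on either strand, CACGTG included, since it contains ACGTG. Where a gene had several listed starts, the promoter with the most matches is printed.
Ldha, chr7:46845554-46845853, plus strand: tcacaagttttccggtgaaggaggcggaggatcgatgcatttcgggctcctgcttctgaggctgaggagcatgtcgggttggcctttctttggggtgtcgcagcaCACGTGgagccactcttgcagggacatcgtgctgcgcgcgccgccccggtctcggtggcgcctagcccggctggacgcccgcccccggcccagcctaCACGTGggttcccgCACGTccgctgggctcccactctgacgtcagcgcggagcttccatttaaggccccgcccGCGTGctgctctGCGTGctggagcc
Slc16a1, chr3:104638414-104638713, plus strand: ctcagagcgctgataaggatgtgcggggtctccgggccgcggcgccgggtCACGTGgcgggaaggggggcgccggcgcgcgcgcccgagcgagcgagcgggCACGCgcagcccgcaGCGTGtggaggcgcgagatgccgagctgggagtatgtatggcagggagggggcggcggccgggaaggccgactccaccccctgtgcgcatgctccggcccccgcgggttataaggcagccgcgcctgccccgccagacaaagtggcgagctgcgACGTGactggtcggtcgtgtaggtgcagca
Aldoc, chr11:78322823-78323122, plus strand: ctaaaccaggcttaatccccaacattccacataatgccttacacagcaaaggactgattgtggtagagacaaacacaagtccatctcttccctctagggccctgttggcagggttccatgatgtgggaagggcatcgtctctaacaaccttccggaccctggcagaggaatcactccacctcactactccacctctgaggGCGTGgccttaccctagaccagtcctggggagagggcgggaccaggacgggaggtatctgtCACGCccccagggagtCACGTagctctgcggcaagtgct
Pgk1, chrX:106186850-106187149, plus strand: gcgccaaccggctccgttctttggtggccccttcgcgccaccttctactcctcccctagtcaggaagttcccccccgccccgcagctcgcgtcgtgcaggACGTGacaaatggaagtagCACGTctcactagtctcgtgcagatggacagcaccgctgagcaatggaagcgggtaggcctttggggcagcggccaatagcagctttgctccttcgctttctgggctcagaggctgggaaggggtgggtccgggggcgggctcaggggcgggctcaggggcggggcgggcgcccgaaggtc
Hk1, chr10:62340372-62340671, minus strand: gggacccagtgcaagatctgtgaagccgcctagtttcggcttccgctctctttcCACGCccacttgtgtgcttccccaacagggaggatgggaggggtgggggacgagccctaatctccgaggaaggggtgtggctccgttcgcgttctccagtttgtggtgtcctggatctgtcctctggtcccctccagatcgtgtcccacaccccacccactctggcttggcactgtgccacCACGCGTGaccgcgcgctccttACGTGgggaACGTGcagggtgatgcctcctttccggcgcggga

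These promoters held 7 matches in Ldha, 5 in Slc16a1, 3 in Aldoc, 2 in Pgk1 and 5 in Hk1. Each strand was counted, so every CACGTG adds 2 to these counts, and overlapping matches form 1 stretch of capitals. By this count Hk1, the gene that fell, held as many as Slc16a1, though its other listed promoter held 0. Of the called genes not printed, Aldoa held at most 1, Eno1 2 and Pkm 2. Among members without a genotype call, Pfkp, Pdk3, Pdha1 and Pfkfb3 held up to 4, and Gpi1 and Tpi1 held 0. Whether the number of matches goes with the calls was not tested. ACGTG or GCGTG occurred in 36 of 45 member promoters, from 28 of 31 genes with an entry, against 43.8% of 32851 mouse promoters of 300 bases. CACGTG occurred in 4 of 45, against 7.15%, with 2 matches in Ldha and 1 in Slc16a1. GGGCGG, a motif of the Sp1 factor searched on both strands, occurred in 26 of 45, against 35.7%. Member promoters were richer in G and C, with a median of 60.7% against 52.7% for all promoters, and the part of this in the motif counts was not tested. Slc2a3 had no entry in the promoter table.

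Aldolase cleaves fructose 1,6-bisphosphate, and both of its measured genes rose. The main isozyme gene Aldoa was at 1476 and 1708 CPM in CIS-null in vitro libraries against 1002 and 1144 CPM in wild-type in vitro libraries (log2 fold change 0.57, SE 0.124, adjusted p = 0.0147). Aldoc, best known from brain, was at 132 and 187 CPM in CIS-null in vitro libraries against 74.7 and 95.1 CPM in wild-type in vitro libraries (log2 fold change 0.91, SE 0.172, adjusted p = 0.00959). CIS-null libraries were the higher in both genes without overlap, though in Aldoc the CIS-null pair itself spread widely. Aldoc passed in 20 and Aldoa in 19 of 22 alternatives. Tpi1, which interconverts the triose phosphates made by aldolase, had a log2 fold change of 0.22 and did not pass (adjusted p = 0.177).

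In lower glycolysis 3 of 6 tested genes rose. Pgk1 encodes phosphoglycerate kinase, the first enzyme of the pathway to make ATP. It stood at 187 and 246 CPM in CIS-null in vitro libraries against 106 and 143 CPM in wild-type in vitro libraries (log2 fold change 0.79, SE 0.180, adjusted p = 0.0165). Eno1, the common enolase, stood at 499 and 539.7 CPM in CIS-null in vitro libraries against 354 and 432 CPM in wild-type in vitro libraries (log2 fold change 0.40, SE 0.114, adjusted p = 0.0348). Pkm, the pyruvate kinase gene, stood at 1288 and 1369 CPM in CIS-null in vitro libraries against 897 and 1010.0 CPM in wild-type in vitro libraries (log2 fold change 0.48, SE 0.0991, adjusted p = 0.0125). In each of these genes wild-type replicate 1 was the lowest in vitro library and no wild-type library reached a CIS-null one. Eno1 passed in 13 of 22 alternatives, Pkm in 19 of 22 and Pgk1 in 19 of 21. Pgam1, the phosphoglycerate mutase, lay just outside the threshold and passed in 10 of 22 alternatives, at 45.7 and 47.7 CPM in CIS-null in vitro libraries against 30.7 and 40.2 CPM in wild-type in vitro libraries (log2 fold change 0.40, SE 0.129, adjusted p = 0.0540). Eno3, the muscle enolase, had a log2 fold change of 0.04 (adjusted p = 0.877). Eno2, the neuronal enolase, had 1 count in CIS-null ex vivo replicate 1 and 0 in the other libraries.

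**Figure D1:**
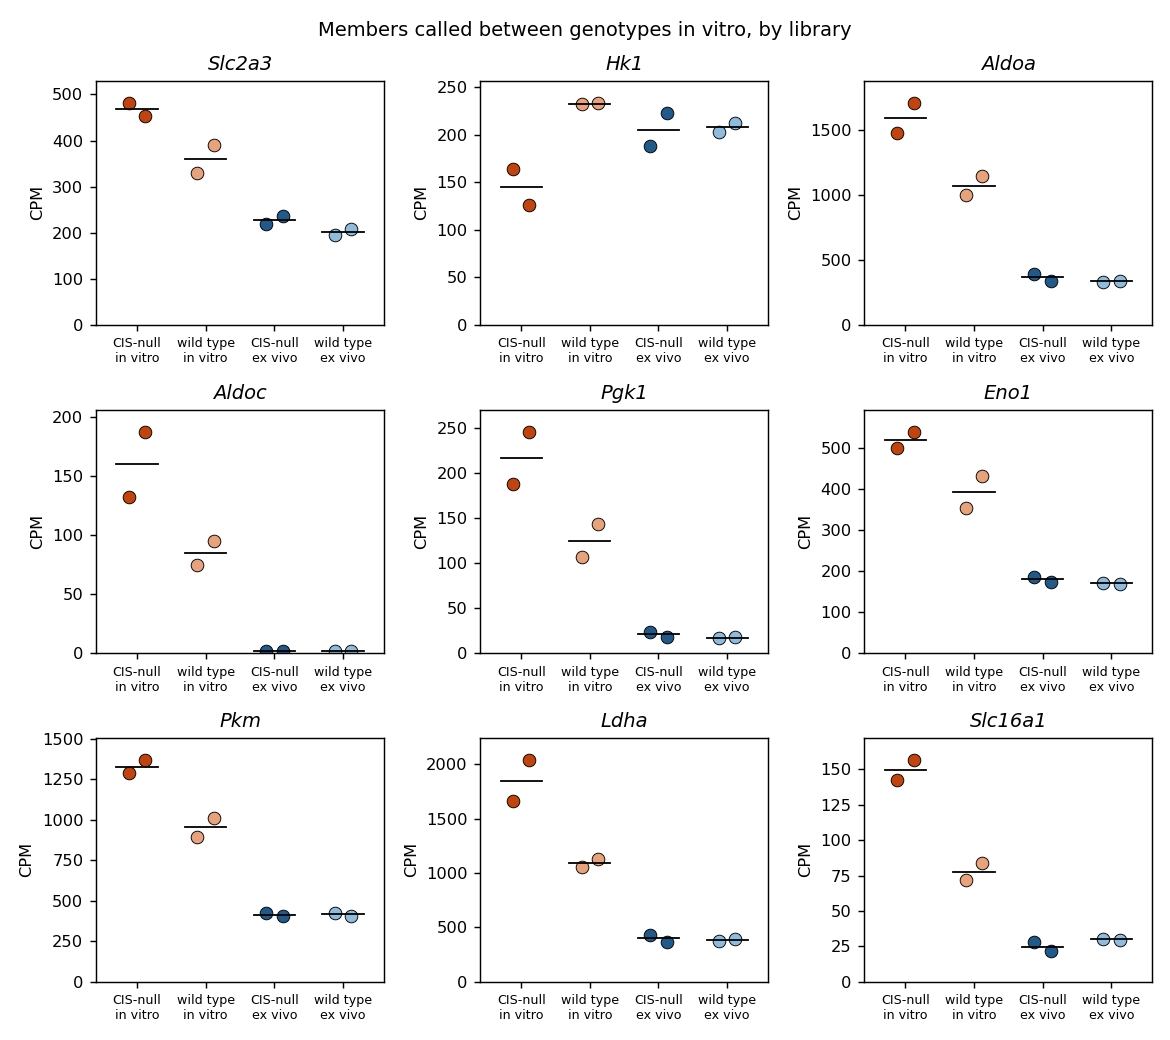
Level in CPM (vertical axes from 0) of the 9 genes called between genotypes in vitro, by group; each point is a library and each line a group mean of 2 libraries. CIS-null in vitro points lie above wild-type in vitro points in 8 panels and below them for Hk1, while the ex vivo points of the genotypes lie close together.

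Hexokinases trap glucose in the cell by phosphorylating it, and of their 3 genes Hk1 alone passed in vitro. Hk1, at chr10:62268855-62379920, stood at 164 and 127 CPM in CIS-null in vitro libraries against 232 and 233 CPM in wild-type in vitro libraries. Both CIS-null libraries lay below both wild-type libraries, which were nearly equal, and the fall passed (log2 fold change -0.68, SE 0.135, adjusted p = 0.0112). Hk2, the isozyme that lymphocytes induce on activation, stood at 92.2 and 73.4 CPM in CIS-null in vitro libraries against 36.1 and 65.8 CPM in wild-type in vitro libraries, which did not pass (log2 fold change 0.70, SE 0.240, adjusted p = 0.0625). Hk3, a hexokinase of myeloid cells, stood at 7.79 and 10.4 CPM in CIS-null in vitro libraries against 10.8 and 4.46 CPM in wild-type in vitro libraries, with overlapping groups (adjusted p = 0.638). Hk1 lost its call in 3 of 22 alternatives, all of them leaving out 1 in vitro library. Its log2 fold change was -0.33 (adjusted p = 0.0164) after each library's trends with gene length and base composition were removed. In this comparison log2 fold changes followed gene length across the 13184 genes, with a Spearman correlation of -0.46 over genes, which are not independent replicates, so that longer genes tended to be lower in CIS-null cells. The log ratio of CIS-null in vitro replicate 1 over replicate 2 followed length as well, with a Spearman correlation of 0.477, and that of the wild-type in vitro pair was 0.0202.

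The glucose transporters split in how far their replicates allowed a call. Slc2a3, which encodes the high-affinity transporter GLUT3, stood at 481 and 454 CPM in CIS-null in vitro libraries against 330.2 and 389.9 CPM in wild-type in vitro libraries and rose (log2 fold change 0.38, SE 0.107, adjusted p = 0.0352). It passed in 13 of 22 alternatives. Slc2a1, which encodes GLUT1, stood at 172 and 164 CPM in CIS-null in vitro libraries against 83.9 and 152 CPM in wild-type in vitro libraries and did not pass (log2 fold change 0.51, SE 0.223, adjusted p = 0.124). As with Slc16a3 and Hk2, its wild-type libraries disagreed, replicate 2 being 1.81 times replicate 1. That ratio was 2.01 for Slc16a3, 1.82 for Hk2 and 1.59 for Gapdh. Of the 30 tested members, 25 were higher in wild-type in vitro replicate 2 than in replicate 1. The share of all genes was not counted, so this is not shown to be particular to the members. Without wild-type in vitro replicate 2, Slc2a1, Hk2 and Slc16a3 passed, at log2 fold changes of 1.00, 1.20 and 1.32. Without replicate 1 they did not, at 0.18, 0.37 and 0.35.

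The committed step of glycolysis, the mitochondrial entry of pyruvate and the pentose phosphate genes gave no call between genotypes in vitro. The phosphofructokinase genes Pfkl, Pfkm and Pfkp had log2 fold changes of 0.10, -0.30 and 0.09. Pfkfb3 and Pfkfb4, which set the level of the phosphofructokinase activator fructose 2,6-bisphosphate, had 0.11 and -0.39. Gpi1, the glucose 6-phosphate isomerase, had 0.18. The kinases Pdk1 and Pdk3 and their target subunit Pdha1 had 0.02, 0.15 and 0.01. G6pdx and Pgd, the NADPH-making dehydrogenases, had -0.08 and 0.21, and the sugar-shuffling enzymes Tkt and Taldo1 had 0.29 and 0.16. Of these, Tkt came closest, with non-overlapping levels of 549 and 542 CPM in CIS-null in vitro libraries against 474 and 419 CPM in wild-type in vitro libraries (log2 fold change 0.29, SE 0.101, adjusted p = 0.0683). It passed in 7 of 22 alternatives, Pfkp and Pfkfb3 in 2 each and Gpi1 in 1, all of them upward.

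**Figure D2:**
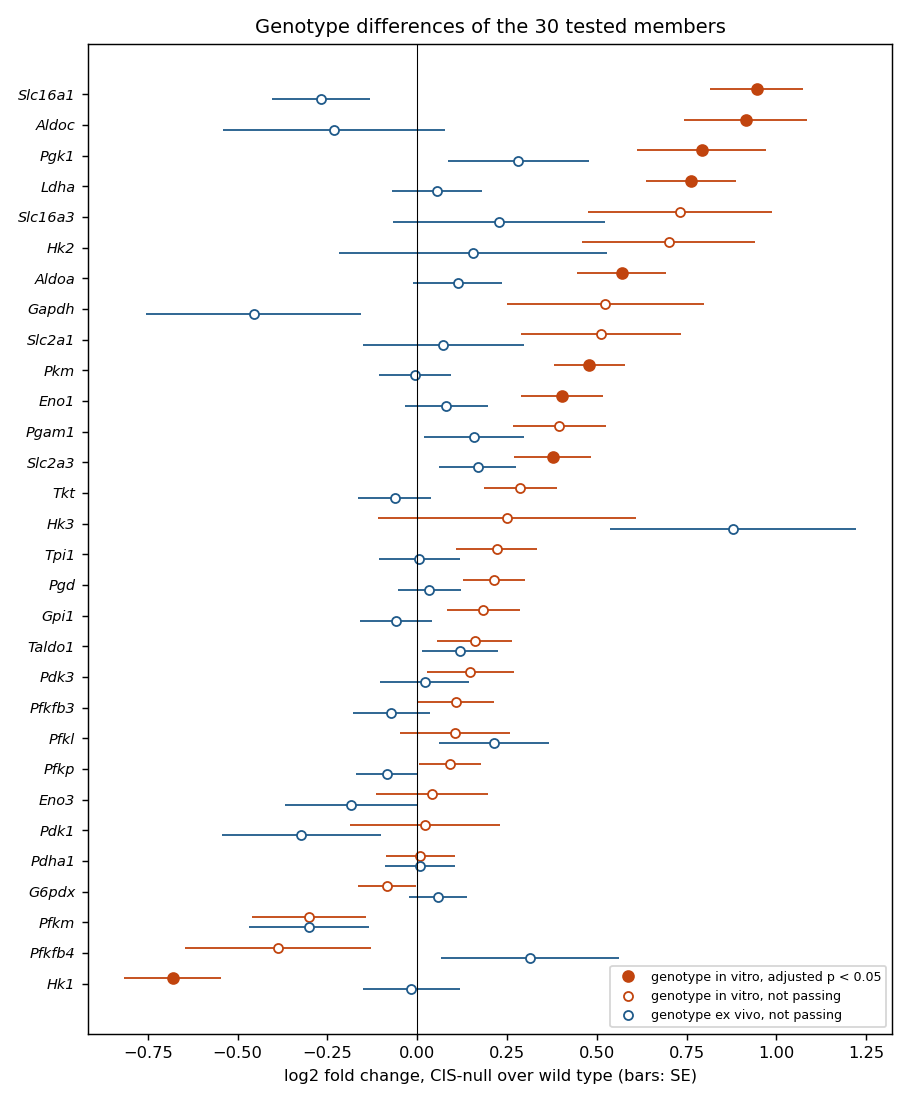
Log2 fold change of CIS-null over wild type for the 30 tested genes, in vitro and ex vivo, with bars for the standard error; filled points have an adjusted p under 0.05. In vitro values run from -0.68 (Hk1) to 0.94 (Slc16a1), and no ex vivo value is filled.

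Genes of the same pathways outside the 32 changed in both directions between genotypes in vitro, and their counts stand beside 11.0% of all genes tested that rose and 14.6% that fell. Of 15 tested other glycolysis genes, 3 rose and 1 fell, with a median log2 fold change of 0.15 against 0.00 over all genes tested. Adpgk, an ADP-dependent glucokinase, rose by 0.75 (adjusted p = 0.00570), as did Gpd1l and Gpd2 of the glycerol phosphate branch, by 0.83 and 0.38, while Pgm2l1 had -0.53 (adjusted p = 0.00947). Of 8 tested other carriers, Bsg rose and the transporter gene Slc2a6 fell (log2 fold change -0.52, SE 0.147, adjusted p = 0.0341). Of 12 tested genes of pyruvate entry, 0 rose and 1 fell, with a median of 0.14. The gene that fell was the kinase gene Pdk2, at 4.24 and 3.40 CPM in CIS-null in vitro libraries against 8.52 and 6.60 CPM in wild-type in vitro libraries (log2 fold change -0.98, SE 0.165, adjusted p = 0.00689). Of 12 other pentose phosphate genes, Rpia, Pgls and Prps1l3 rose, by 0.48, 0.47 and 0.41, and H6pd fell (log2 fold change -0.44, SE 0.0986, adjusted p = 0.0163), with a median of 0.29.

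Markers of cell types and of division were also compared between the cultured genotypes, beside 11.0% of all genes tested that rose and 14.6% that fell. T cell markers stood higher in CIS-null cultures, where 7 of 11 (63.6%) rose and 0 fell. Their summed level was 2509.6 and 2362 CPM in CIS-null in vitro libraries against 1503 and 1532 CPM in wild-type in vitro libraries, most of it Thy1. Cd3e stood at 86.6 and 68.8 CPM in CIS-null in vitro libraries against 9.87 and 3.51 CPM in wild-type in vitro libraries, Cd8a at 9.02 and 6.21 CPM against 1.56 and 0.141 CPM, and Cd4 at 0 and 0.0400 CPM against 0.104 and 0.0703 CPM. Of 13 NK cell markers, 4 (30.8%) rose and 2 (15.4%) fell. Of 14 cell cycle genes, 0 rose and 1 (7.14%) fell, Mki67, which are smaller shares than those of all genes. Their summed level was 1420.0 and 1493 CPM in CIS-null in vitro libraries against 1684 and 1732 CPM in wild-type in vitro libraries. The part of these differences in the glycolytic ones was not tested.

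Ex vivo, 0 of the 30 tested genes passed between genotypes, beside 0.0607% of all genes tested (8 of 13184). At an unadjusted p under 0.05 there was 1 member, Hk3, beside 6.40% of all genes, and DESeq2 and limma-voom called 0 members. The median log2 fold change was 0.03 for the members and 0.02 for all genes, with 18 values above 0 and 12 below. Both CIS-null libraries lay above both wild-type libraries in 9 genes and below in 6, beside 22.0% and 18.4% of all genes. Ldha was at 428 and 369 CPM in CIS-null ex vivo libraries against 378 and 389.6 CPM in wild-type ex vivo libraries, and the groups overlapped. Slc16a1 was at 27.9 and 21.8 CPM in CIS-null ex vivo libraries against 30.4 and 29.3 CPM in wild-type ex vivo libraries, so its CIS-null libraries were the lower ones here (log2 fold change -0.27, SE 0.136, adjusted p = 0.766). Aldoc was low in every ex vivo library, at 1.66 and 1.77 CPM in CIS-null ex vivo libraries against 2.19 and 1.85 CPM in wild-type ex vivo libraries. Pgk1 was at 23.4 and 18.4 CPM in CIS-null ex vivo libraries against 16.8 and 17.5 CPM in wild-type ex vivo libraries (adjusted p = 0.780). Eno1 was at 187 and 173 CPM in CIS-null ex vivo libraries against 171 and 169 CPM in wild-type ex vivo libraries (adjusted p = 0.866). Slc2a3 was at 218 and 235 CPM in CIS-null ex vivo libraries against 195 and 208 CPM in wild-type ex vivo libraries (adjusted p = 0.775). In these 3 genes the CIS-null libraries lay above the wild-type ones without overlap and without passing. Aldoa was at 395 and 334 CPM in CIS-null ex vivo libraries against 334 and 341 CPM in wild-type ex vivo libraries. Pkm was at 425 and 405 CPM in CIS-null ex vivo libraries against 426 and 407 CPM in wild-type ex vivo libraries. Both overlapped between the genotypes, as did Hk1. Hk1 was at 188 and 223 CPM in CIS-null ex vivo libraries against 203 and 213 CPM in wild-type ex vivo libraries. Hk3 was at 24.0 and 25.2 CPM in CIS-null ex vivo libraries against 11.2 and 15.6 CPM in wild-type ex vivo libraries (log2 fold change 0.88, SE 0.342, adjusted p = 0.739). Beside it, Csf1r, a receptor gene of macrophages and monocytes, stood at 65.3 and 47.2 CPM in CIS-null ex vivo libraries against 51.7 and 31.2 CPM in wild-type ex vivo libraries. The 11 monocyte and macrophage markers found in the file summed to 1289.6 and 952 CPM in CIS-null ex vivo libraries against 1233 and 1104 CPM in wild-type ex vivo libraries, with 9 of 11 log2 fold changes above 0 and 0 calls. The 8 basophil and mast cell markers summed to 42.8 and 19.2 CPM in CIS-null ex vivo libraries against 11.6 and 9.12 CPM in wild-type ex vivo libraries, with 8 of 8 above 0, each at an unadjusted p under 0.05, and 0 calls. B and plasma cell markers summed to 73.9 and 6.53 CPM in CIS-null ex vivo libraries against 23.6 and 17.8 CPM in wild-type ex vivo libraries, with 7 of 7 tested above 0 and 0 calls. The 10 neutrophil markers summed to 3.13 and 5.15 CPM in CIS-null ex vivo libraries against 10.9 and 7.10 CPM in wild-type ex vivo libraries. Their log2 fold changes lay below 0 in 5 of 5 tested, with 0 calls. Of 10 tested erythroid and platelet markers, 7 lay below 0 and 3 above, with 0 calls. The part of these cells in the Hk3 value was not tested.

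Whether the genotype difference itself changed with culture was tested as an interaction, the log2 fold change in vitro minus that ex vivo. None of the 30 genes passed it in edgeR, beside 0.137% of all genes tested, and 8 had an unadjusted p under 0.05, beside 19.6%. The value nearest the threshold was that of Slc16a1 (1.21, SE 0.188, adjusted p = 0.0597), which passed in 6 of 21 alternatives. Ldha had 0.70 (SE 0.177, adjusted p = 0.115), Aldoc 1.15 (SE 0.354, adjusted p = 0.152), Pkm 0.48 (SE 0.140, adjusted p = 0.137) and Hk1 -0.66 (SE 0.191, adjusted p = 0.136). DESeq2 called these 5 of the members and no other, beside 4.49% of all genes (223 higher and 369 lower of 13184). In 5 members, Slc16a1, Aldoc, Gapdh, Pfkp and G6pdx, the genotypes did not overlap and lay on opposite sides in vitro and ex vivo, as in 6.56% of all genes (865 of 13184). The calls in vitro and their absence ex vivo are therefore not shown to differ by the edgeR test. The median interaction was 0.23 over the members and -0.04 over all genes. Xist and Ddx3y differed among the groups, so sex cannot be told apart from this interaction. Over all genes, 18 of 13184 passed the edgeR test. With X- and Y-linked genes outside the members left out, 1 of 12755 did.

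More of the genes changed with culture than with genotype, and by more. In CIS-null cells 23 of 30 genes rose in vitro relative to ex vivo, or 76.7% beside 34.8% of all genes tested, and 5 fell, or 16.7% beside 37.5%. Their median log2 fold change was 1.30, against -0.05 for all genes. In wild-type cells 21 of 30 rose, or 70.0% beside 32.1%, and 2 fell, or 6.67% beside 31.6%, with a median of 0.90 against 0.00. In vitro libraries lay wholly above ex vivo libraries for 23 genes in CIS-null cells and 22 in wild-type cells, beside 41.4% and 43.5% of all genes, and wholly below for 6 and 4, beside 44.0% in each. These comparisons share libraries with the genotype comparisons, and ex vivo libraries held some marker transcripts of other cells that were at or near 0 in vitro. Other markers stood higher in vitro. T cell markers summed to 2509.6 and 2362 CPM in CIS-null in vitro libraries against 636 and 456 CPM in CIS-null ex vivo libraries. Of these 11 markers, 6 (54.5%) rose and 2 (18.2%) fell. Basophil and mast cell markers summed to 50.2 and 72.4 CPM against 42.8 and 19.2 CPM, with 2 of 8 (25.0%) higher and 6 (75.0%) lower. The 11 monocyte and macrophage markers summed to 1150.3 and 1407 CPM in CIS-null in vitro libraries against 1289.6 and 952 CPM in CIS-null ex vivo libraries, most of it Ccr2. Csf1r was at 0.0385 and 0 CPM in CIS-null in vitro libraries against 65.3 and 47.2 CPM in CIS-null ex vivo libraries. The part of such cells in the culture changes was not tested.

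Among the 30 genes, Aldoc and Hk2 had the largest rises in both genotypes. Hk2 stood at 92.2 and 73.4 CPM in CIS-null in vitro libraries against 2.90 and 2.56 CPM in CIS-null ex vivo libraries (log2 fold change 4.92, SE 0.311, adjusted p = 3.32e-06). In wild-type cells it stood at 36.1 and 65.8 CPM in vitro against 2.52 and 2.37 CPM ex vivo (log2 fold change 4.38, SE 0.310, adjusted p = 8.70e-06). Aldoc was at 132 and 187 CPM in CIS-null in vitro libraries against 1.66 and 1.77 CPM in CIS-null ex vivo libraries (log2 fold change 6.54, SE 0.244, adjusted p = 3.12e-07), and its log2 fold change in wild-type cells was 5.39. Both genes were at no more than 2.90 CPM in any ex vivo library. Slc2a3 rose in both genotypes, by 1.04 in CIS-null and 0.84 in wild-type cells, whereas Slc2a1 passed in CIS-null cells (0.83) and not in wild-type cells (0.40), where it ran from -0.09 to 0.73 over 22 alternatives and passed in 1, without wild-type in vitro replicate 1. The difference between the genotypes in this change did not pass (adjusted p = 0.483). Gpi1 rose by 1.95 in CIS-null and 1.71 in wild-type cells, Aldoa by 2.13 and 1.67, Tpi1 by 1.45 and 1.23, and Pfkm by 0.58 and 0.57.

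Pfkp, the platelet-type phosphofructokinase gene, went the other way. It stood at 219 and 225 CPM in CIS-null in vitro libraries against 352 and 381 CPM in CIS-null ex vivo libraries (log2 fold change -0.72, SE 0.0864, adjusted p = 9.86e-05), and at 207 and 209.6 CPM in wild-type cells in vitro against 391 and 386 CPM in wild-type cells ex vivo (log2 fold change -0.90, SE 0.0866, adjusted p = 4.59e-05). Each in vitro library lay below each ex vivo library. G6pdx, the entry enzyme of the pentose phosphate pathway, also fell in both genotypes, with log2 fold changes of -0.40 in CIS-null and -0.26 in wild-type cells, where it lost its call in 4 of 21 alternatives, each leaving out 1 wild-type library. Hk1, Hk3 and Pfkfb4 fell in CIS-null cells, with log2 fold changes of -0.50, -1.44 and -0.95, and did not pass in wild-type cells, with 0.16, -0.81 and -0.25. The interaction did not pass for these 3 genes (adjusted p = 0.136, 0.524 and 0.320). In CIS-null cells Hk1 lost its call in 4 of 23 alternatives, without CIS-null in vitro replicate 2, without CIS-null ex vivo replicate 2, with the length trend removed, and with length and base composition removed, where its value turned to 0.075 (adjusted p = 0.411 by edgeR). In wild-type cells it was called higher in 3 of 22. Hk3 lost its CIS-null call in 1 of 23, without CIS-null in vitro replicate 1, and passed in wild-type cells in 4 of 22. Pfkfb4 kept its CIS-null call in 20 of 22, not without CIS-null in vitro replicate 2 nor with length and base composition removed. Pfkl and Pfkfb3 passed in neither genotype. Pfkfb3 stayed within 42.3 and 52.5 CPM in all 8 libraries.

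Lower glycolysis and lactate genes rose in both genotypes, except that Gapdh passed in CIS-null cells (1.29, adjusted p = 0.00357) and not in wild-type cells (0.32, adjusted p = 0.358), and Eno2 and Ldhb were not tested. The interaction for Gapdh did not pass (adjusted p = 0.238). Pgk1 rose by 3.38 in CIS-null and 2.86 in wild-type cells, Pkm by 1.68 and 1.19, Eno1 by 1.53 and 1.21, Eno3 by 2.28 and 2.06, and Pgam1 by 1.5 and 1.26. Ldha reached 1659.9 and 2036 CPM in CIS-null in vitro libraries against 428 and 369 CPM in CIS-null ex vivo libraries (log2 fold change 2.21, SE 0.131, adjusted p = 2.35e-06), and 1056 and 1125 CPM in wild-type cells in vitro against 378 and 389.6 CPM in wild-type cells ex vivo (log2 fold change 1.51, SE 0.128, adjusted p = 2.25e-05). Slc16a3 rose further, by 3.69 in CIS-null and 3.19 in wild-type cells. Slc16a1 rose by 2.59 and 1.38, which was more than Ldha in CIS-null cells and less in wild-type cells. At the mitochondrial gate Pdk1 rose by 1.84 and 1.49, Pdk3 by 0.60 and 0.47, and Pdha1 by 0.28 and 0.28. In the pentose phosphate pathway Tkt rose by 1.31 and 0.96, Pgd by 0.74 and 0.56, and Taldo1 by 0.37 and 0.33. Some of these calls depended on the settings. Pdha1 passed in 15 of 22 alternatives in CIS-null and 14 of 21 in wild-type cells, and Taldo1 in 18 of 23 and 16 of 22, with lowest values of -0.007 in CIS-null and 0.02 in wild-type cells when the length trend was among the trends removed. In wild-type cells Pdk3 passed in 18 of 21 and Pfkm in 18 of 22. Of 14 cell cycle genes, 13 rose in culture in CIS-null cells and 14 in wild-type cells, and their part in these changes was not tested.

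**Figure D3:**
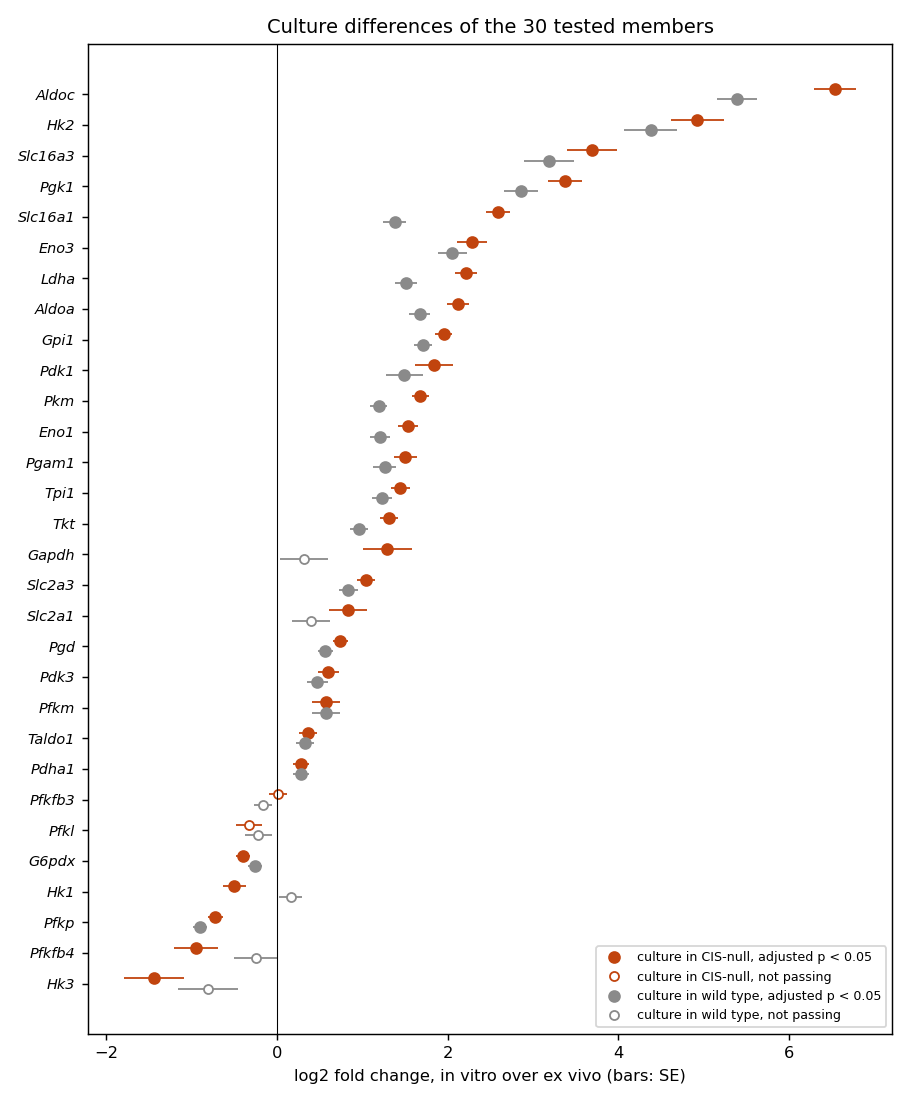
Log2 fold change of in vitro over ex vivo for the 30 tested genes in CIS-null and in wild-type cells, with bars for the standard error; filled points have an adjusted p under 0.05. Aldoc (6.54 in CIS-null, 5.39 in wild type) and Hk2 (4.92 and 4.38) lie at the top, and Pfkp and G6pdx are filled below 0 in both genotypes.

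Genes of the same pathways outside the 32 also changed in both directions in culture. Pdk2 fell in both genotypes, with log2 fold changes of -2.96 in CIS-null and -2.07 in wild-type cells, opposite to its relatives Pdk1 and Pdk3. Its level was 4.24 and 3.40 CPM in CIS-null in vitro libraries against 30.03 and 29.4 CPM in CIS-null ex vivo libraries. H6pd, which makes NADPH in the endoplasmic reticulum, fell, with -1.65 in CIS-null and -1.28 in wild-type cells, and Pgls, the second enzyme of the pentose phosphate pathway, rose by 1.5 and 1.20. These counts stand beside 34.8% higher and 37.5% lower of all genes in CIS-null cells and 32.1% and 31.6% in wild-type cells. Of the 15 other glycolysis genes, CIS-null cells had 7 that rose and 3 that fell, and wild-type cells had 4 of each. Of the 12 genes of pyruvate entry, CIS-null cells had 7 that rose and 2 that fell, and wild-type cells had 6 and 2.

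The isozymes of each step were compared on a per-length scale, CPM per kilobase of gene model, as each gene's share of its family in each library. With 2 libraries a group, the smallest exact two-sided permutation p is 0.333, so the shares are given without a test. Hk2 made up 30.2 and 29.9% of the hexokinase level in CIS-null in vitro libraries and 10.7 and 18.3% in wild-type in vitro libraries, but 1.06 and 0.804% in CIS-null ex vivo libraries and 0.935 and 0.821% in wild-type ex vivo libraries. Hk1 made up 65.5 and 63.0% in CIS-null in vitro libraries and 83.9 and 79.6% in wild-type in vitro libraries. The Hk2 share was thus higher in every in vitro library than in any ex vivo library, and higher in both CIS-null in vitro libraries than in both wild-type ones. Slc16a1 made up 33.4 and 34.5% of the lactate transporter pair in CIS-null in vitro libraries and 38.1 and 26.3% in wild-type in vitro libraries, against 55.5 and 49.0% in CIS-null ex vivo libraries and 62.2 and 59.5% in wild-type ex vivo libraries. Slc16a3 was therefore the more abundant transporter in every in vitro library. Aldoc contributed 8.78 and 10.5% of aldolase in CIS-null in vitro libraries and 7.40 and 8.18% in wild-type in vitro libraries, and under 1% in each ex vivo library. Pfkp was the main phosphofructokinase gene in all 8 libraries, with 69.9 and 70.8% in CIS-null in vitro libraries, 73.4 and 66.3% in wild-type in vitro libraries, 76.2 and 77.5% in CIS-null ex vivo libraries and 79.7 and 80.0% in wild-type ex vivo libraries. Pdk1 stood at 31.0 and 33.8% of Pdk1 plus Pdk3 in CIS-null in vitro libraries and 31.1 and 37.9% in wild-type in vitro libraries, against 18.8 and 14.6% in CIS-null ex vivo libraries and 19.9 and 21.2% in wild-type ex vivo libraries.

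**Figure D4:**
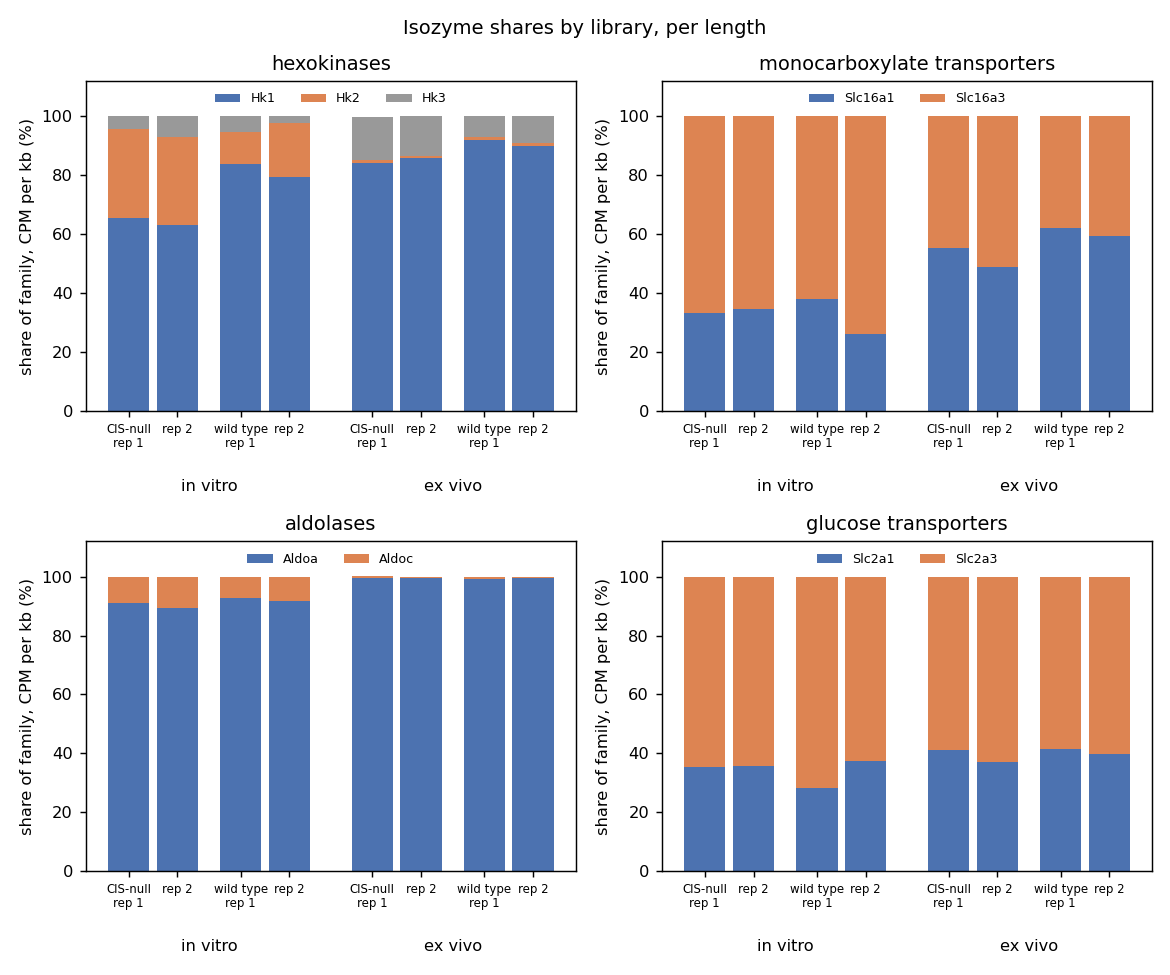
Share of each gene (%) in its family's summed CPM per kb, by library, for hexokinases, monocarboxylate transporters, aldolases and glucose transporters. The Hk2 share is 30.2% and 29.9% in CIS-null in vitro libraries and 10.7% and 18.3% in wild-type in vitro libraries, and small ex vivo.

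Ranked by mean level per length, the order at the top was similar in the 4 groups. In CIS-null in vitro cells Ldha (958 CPM per kb) and Aldoa (873) led, followed by Pkm (511), Gpi1 (297) and Eno1 (292). In wild-type in vitro cells Aldoa (588), Ldha (565), Pkm (367), Gpi1 (261) and Eno1 (221) led. Ex vivo Ldha, Aldoa, Pkm and Taldo1 led, at 207, 199.9, 159.7 and 142 CPM per kb in CIS-null cells and 199, 185, 160.4 and 130.5 in wild-type cells. Ldha and Aldoa overlapped between replicates in both in vitro groups and in CIS-null ex vivo cells, so their order there is not set apart from the spread. Among the 30 tested genes, those at the low end in wild-type ex vivo cells were Hk2 (0.444 CPM per kb), Pfkfb4 (0.772), Aldoc (1.19) and Gapdh (1.79).

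Gapdh, one of the most abundant transcripts of most cells, had a low place here and shares much of its sequence with other genes. Gapdh encodes glyceraldehyde 3-phosphate dehydrogenase, and its level was 3.89 and 4.005 CPM in CIS-null in vitro libraries against 2.12 and 3.37 CPM in wild-type in vitro libraries, from at most 101 counts in a library. Of the 50-base windows of its longest GENCODE transcript, 82.5% also occurred in transcripts of 222 other genes. That share was 72.2% for Eno1, 68.0% for Pgk1, 41.5% for Pgam1, 34.4% for Pkm, 25.3% for Gpi1, 16.6% for Ldha, 13.5% for Aldoa and 2.55% for Hk1. It was 0 for Slc16a1, Slc16a3, Aldoc, Hk2, Hk3, Slc2a3, Tkt and Pgd. As means over 8 libraries, Gapdh stood at 2.13 CPM per kb, Eno1 at 178 and Pgk1 at 52.7. How reads with several possible positions were counted is not given in the sources used here. Levels of genes with a high share are therefore uncertain. The part of shared sequence in the low Gapdh level and in the differences was not tested.

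**Figure D5:**
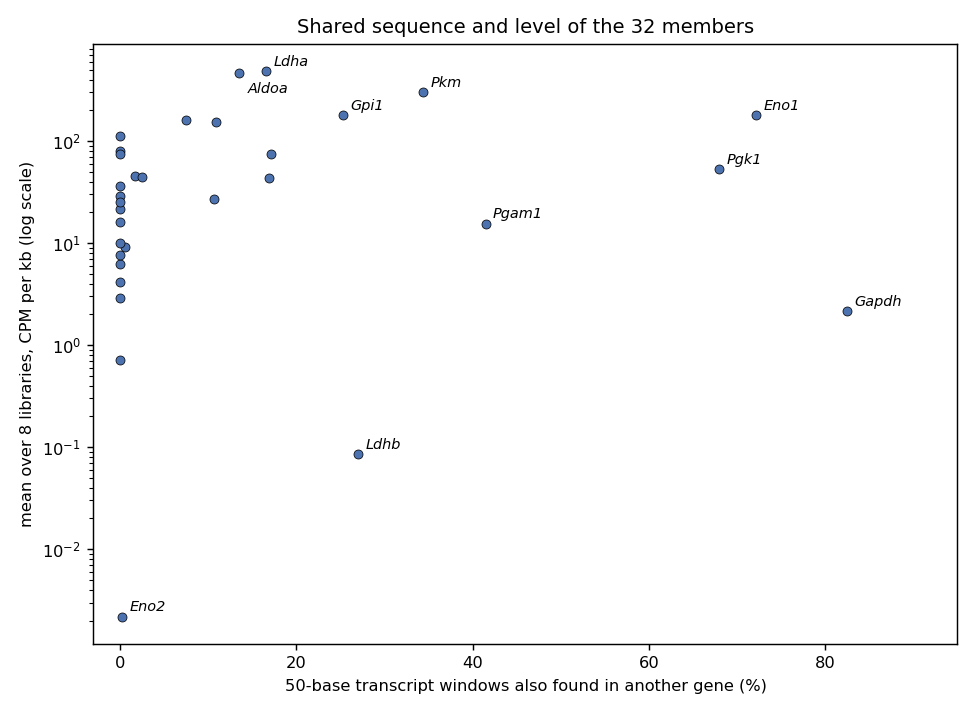
Mean level over 8 libraries (CPM per kb, log scale) against the percentage of 50-base transcript windows also found in another gene, with 1 point per gene for all 32. Gapdh lies at 82.5% and a low level, apart from Eno1 at 72.2% and Pgk1 at 68.0%, which have higher levels.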

How the data were processed

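NK cell RNA was sequenced in 8 libraries. Per the submitters' processing notes, reads were aligned to GRCm38/mm10 with Subread, counted with featureCounts and normalised with limma. Versions, strand and the handling of reads with several positions are not given in the sources used here. The authors deposited a matrix of raw read counts for 27179 genes with gene lengths, and per-sample log2 RPKM values for 12372 genes, of which 0 lay on X or Y. Counts were used throughout, and log2 RPKM for 1 alternative.

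Genes were kept by filterByExpr (minimum count 10, minimum total 15), which left 13184. edgeR 4.0.16 in R 4.3.3 fitted all 8 libraries with 1 mean per group, trimmed mean of M values scaling and the quasi-likelihood test (4 residual degrees of freedom). In each of 5 comparisons p-values of every tested gene entered 1 Benjamini-Hochberg adjustment, and 0.05 was the threshold. Standard errors were obtained by dividing the size of the log2 fold change by the root of the F statistic. CPM are these counts per 1e+06 scaled counts, and CPM per kb are divided by the deposited gene length. Rows without a symbol, 565 of them, stayed in the fit. No replicate pair agreed within sampling noise, the chi-square statistic divided by its degrees of freedom being 5.96 to 34.2.

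Alternatives were edgeR's relative log expression factors or library totals as scaling, no filter or 5 CPM in 2 libraries, and DESeq2 1.42.0 or limma-voom (limma 3.58.1). Others were a robust fit, a replicate block, fits of only the 4 compared libraries, and omission of each library in turn. Omission of a library leaves its group with 1 library, taken to be as variable as the other groups. Trends with gene length, or with length and base composition, were also removed. Further alternatives left out X- and Y-linked genes or the 50 most abundant genes, in both cases keeping all members, or used limma on log2 RPKM. The edgeR fit was tested on simulated data with 200 changed genes. Members were named in full, in every library, where they passed between genotypes or in the interaction, and other lists by their largest passing changes. Other values, such as those of members close to the threshold, were chosen after they were seen. The members, lists and alternatives were chosen with earlier results of these data known. Shared 50-base windows were searched in GENCODE M21 transcripts, and promoters come from RefSeq (GRCm38.p6), where 31 of 32 members matched.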

Additional observations from a re-analysis of the deposited data

Results flagged for a closer look

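In 5 genes the CIS-null libraries lay wholly on one side of the wild-type libraries in vitro and wholly on the other side ex vivo. That is 5 of the 30 tested members, beside 6.56% of all genes tested (865 of 13184). The value given is the log2 fold change of CIS-null over wild type in vitro minus that ex vivo, and edgeR's interaction test did not pass for any of the 5. Slc16a1 had 1.21 (adjusted p = 0.0597), from 0.94 in vitro and -0.27 ex vivo. Aldoc had 1.15 (adjusted p = 0.152), resting ex vivo on levels of at most 2.19 CPM. Gapdh had 0.98 (adjusted p = 0.238), with 33 to 101 counts per library. Pfkp had 0.18 (adjusted p = 0.461), from 0.09 in vitro and -0.08 ex vivo. G6pdx had -0.14 (adjusted p = 0.534), from -0.08 in vitro and 0.06 ex vivo.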

How the results depend on the processing

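Genotype in vitro gave 8 genes higher and 1 lower. The count of higher genes was 13 by DESeq2, 14 after removal of each library's trends with length and base composition, and 4 by limma on log2 RPKM, where only 26 of the 32 genes are listed. Leaving out 1 library gave 2 to 11 higher and 0 to 1 lower. Over all genes, 1445 of 13184 were called higher with the reported settings, 1756 of 13184 by DESeq2, 1834 of 11961 after that removal, 1553 on log2 RPKM and 187 to 1980 with 1 library left out. For the interaction, all genes gave 1.69% higher and 2.80% lower by DESeq2, and 0.201% and 0.206% without the low-count filter. Length correction gave 0.455% and 0.485%, and correction for length and base composition 1.94% and 0.895%. Among the members, with 0 interaction calls as reported, DESeq2 gave 4 higher and 1 lower. No low-count filter gave 1 higher, length correction 1 higher, and correction for length and base composition 2 higher. Leaving out 1 library gave 0 to 2 higher and 0 to 1 lower there. In culture, CIS-null cells had 5 lower genes, 3 after correction for length and base composition and 3 to 6 when 1 library was left out (21 to 23 higher). Wild-type cells had 2 lower genes, and 1 to 2 when 1 library was left out (17 to 21 higher). Genotype ex vivo gave 0 calls in all settings run. Fits of the compared samples alone give no interaction. In CIS-null cells 2 called culture changes turned round, Hk1 at 0.075 (adjusted p = 0.411) with length and base composition removed and Taldo1 at -0.007 (adjusted p = 0.937) with length removed. The cause was not tested.

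With library totals in place of trimmed means the median of all genes shifted by -0.13 for genotype in vitro, -0.11 for the interaction and -0.12 for culture in CIS-null cells, and the fit called 6 members higher in vitro. The replicate numbers are not shown to pair samples: the correlation of deviations was -0.04 between the in vitro groups and 0.17 between the ex vivo groups. With a replicate block the in vitro count was again 8 higher and 1 lower, with Slc16a3 in and Eno1 out, and culture gave 23 higher and 5 lower in CIS-null cells and 21 higher and 2 lower in wild-type cells. Crossing the numbers between CIS-null in vitro and ex vivo libraries, whose correlation was -0.33, also gave 23 and 5, beside 34.8% and 37.4%. This was chosen after seeing the data.

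In simulated data of this depth and spread with 200 changed genes, 85.5% of 2-fold changes were found between genotypes in vitro. Smaller changes, such as those of every member called between genotypes in vitro, were not simulated, so the rate does not apply to them. Ldhb and Eno2 had too few counts to test.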

Other observations

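Regulators of the pathway and genes induced by hypoxia outside it were also measured. Of 17 tested regulators, 2 (11.8%) rose and 1 (5.88%) fell in CIS-null in vitro cells, beside 11.0% and 14.6% of all genes tested, with a median log2 fold change of -0.06. Mycn, a MYC family transcription factor, stood at 60.6 and 62.0 CPM in CIS-null in vitro libraries against 33.0 and 35.2 CPM in wild-type in vitro libraries (log2 fold change 0.85, SE 0.111, adjusted p = 0.00409 by edgeR), and Max, the binding partner of MYC proteins, rose by 0.42. Arnt, the partner of hypoxia-inducible factor, fell (log2 fold change -0.43, SE 0.112, adjusted p = 0.0258). Hif1a had a log2 fold change of 0.06 (adjusted p = 0.666) and Myc -0.24 (adjusted p = 0.315). In culture Myc rose by 1.11 in CIS-null and 1.12 in wild-type cells, and Hif1a by 0.82 and 0.76. Mycn was at 60.6 and 62.0 CPM in CIS-null in vitro libraries against 0 and 0.0393 CPM in CIS-null ex vivo libraries.

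Of 15 tested hypoxia-inducible genes outside glycolysis, 5 (33.3%) rose and 1 (6.67%) fell in CIS-null in vitro cells, with a median of 0.29. Of all genes tested, 11.0% rose and 14.6% fell. P4ha2, a collagen prolyl hydroxylase subunit, stood at 17.6 and 18.3 CPM in CIS-null in vitro libraries against 5.39 and 7.66 CPM in wild-type in vitro libraries (log2 fold change 1.46, SE 0.198, adjusted p = 0.00447 by edgeR). Bnip3, a mitophagy receptor gene, stood at 28.9 and 45.3 CPM in CIS-null in vitro libraries against 16.8 and 22.8 CPM in wild-type in vitro libraries (log2 fold change 0.91, SE 0.241, adjusted p = 0.0283 by edgeR). Fam162a, Ero1l and Ddit4 rose by 0.77, 0.53 and 0.29, and Kdm4b fell (log2 fold change -0.67, SE 0.144, adjusted p = 0.0142 by edgeR). Some genes of these lists differed between the wild-type in vitro libraries in the same direction as Slc16a3, Hk2 and Slc2a1. Chosen after their values were seen, Ankrd37 stood at 12.3 and 37.0 CPM, Egln3 at 11.4 and 27.2 CPM, Vegfa at 5.21 and 13.8 CPM and P4ha1 at 114 and 187 CPM in those 2 libraries, lower in replicate 1 each time. Others of these lists went the other way. Replicate 2 over replicate 1 was 0.684 for Car9, 0.674 for Epas1, 0.794 for Arrdc4 and 0.896 for Txnip. No count over the lists or over all genes was made. Ex vivo, 0 genes of either list passed by edgeR between genotypes, and 2 regulators and 1 hypoxia-inducible gene had an unadjusted p under 0.05.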
